A study of Mus musculus with 2 samples.

Results

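Chemokine ligands are small secreted or membrane-anchored proteins that direct the movement of leukocytes. The genes described here were those with a symbol Ccl, Cxcl or Cx3cl plus a number, or Xcl1, with 2 symbols of the CXC family not included. Of 38 such symbols in the gene table, 32 had at least 1 probe, out of 20144 named genes on the array, and these 32 were carried by 38 probes. No probe was matched to Ccl21a, Ccl21b, Ccl21c, Ccl21d, Ccl27b or Cxcl11.

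The RNA came from cells labelled P3 primary keratinocytes, epithelial cells of the epidermis, of mice without the small GTPase Rac3 (Rac3-KO, named as the control) and of mice whose label gives the loss of Rac1 as well as Rac3 (Rac1Rac3-DKO). By their labels both groups share the loss of Rac3. The way Rac1 was deleted, the number of mice and any pooling are not given in the sources used here. Each genotype was measured on 1 single-colour (Cy3) Agilent expression array, so every difference stands without replicates and without a test. The title of the series asks how Rac activity in the epidermis acts on white fat cells of the skin.

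Every signal given is the scanner's processed signal before scaling, and every log2 difference is the DKO-labelled array minus the Rac3-KO array after each array was scaled to its own 75th percentile. The 75th percentile was 705 in Rac3-KO and 354 in the DKO-labelled sample, so a gene with the same unscaled signal on both has a positive difference. The percentage of probes well above background was 56.9% and 52.9%, and the lowest such signal was 23.4 and 20.1. When the arrays were scaled to 7 spike-in control probes instead, every difference moved by -2.06 on the log2 scale, so each "higher" and "lower" here is relative to the other genes of the same array. The error given beside a difference is the software's own signal error, with a median of 0.21 for the measured chemokines; it holds no variation between cultures or animals.

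The labels were first set against the data. The 2 Rac1 probes gave 19847 and 15327 in Rac3-KO and 12140 and 7078 in the DKO-labelled sample, differences of 0.28 and -0.12 (errors 0.20 each). Relative to its other genes, the array labelled Rac1Rac3-DKO thus showed no loss of Rac1 signal at these probes. With spike-in scaling both probes were below 0, by a shift of -2.06 that applies to every gene alike. The Rac3 probe gave 99.8 and 59.1 and was well above background on both arrays. Where these probes lie relative to the deleted parts of Rac1 and Rac3 is not given in the sources used here, and a probe outside a deleted part checks nothing. Keratinocyte markers were present on both arrays, but their summed level, in units of the array's 75th percentile, was 680 in Rac3-KO and 250 in the DKO-labelled sample over 10 basal markers, and 314 and 30.8 over the differentiated markers. Markers of fibroblasts, skeletal muscle, macrophages, mast cells and red cells were also well above background on both arrays, so neither sample can be read as keratinocyte RNA alone. In RNA from a bulk sample, fewer cells of a type and less RNA per cell cannot be told apart.

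Chemokines are grouped by the spacing of their conserved cysteines into CC, CXC, C and CX3C forms, and they act through G protein-coupled receptors named after the same groups. Skin epithelium makes some of them constitutively, such as Cxcl14 and Ccl27a, and others such as Cxcl1 when it is inflamed, while macrophages, mast cells and fibroblasts of the dermis make many CC chemokines. Atypical receptors bind chemokines without the usual signalling and remove or carry them.

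Of the 32 genes with a probe, 21 were well above background on both arrays (65.6%, against 70.2% of all named genes) and are called measured. Among them 3 had a level in the DKO-labelled sample that was lower by 2-fold or more (14.3%), beside 6.62% of all 14144 measured genes. At least 2-fold higher were 4 of the 21 (19.0%), against 7.71% of all measured genes; with spike-in scaling these counts were 17 lower and 0 higher. Over all genes, 53.8% of the calls were higher, against 43.6% under scaling to the array medians. The 3 lower genes were Cxcl14, Ccl27a and Cx3cl1, and the 4 higher ones were the CC chemokines Ccl6, Ccl9, Ccl12 and Ccl24. The median difference of the 21 was 0.28, with a range from -1.22 to 1.95, beside a median of -0.01 for all measured genes. The medians of the CC and CXC forms differed, but their ranges overlapped. The 14 measured CC genes had a median of 0.48 (-1.15 to 1.95), and the 6 CXC genes had a median of -0.57 (-1.22 to 0.67). Above 0 were 10 of the 14 and 2 of the 6. A common shift of all genes keeps the order of the medians but not these counts. For 15 of the 21 the difference exceeded 2 signal errors, with no share over all measured genes set beside this count. The signal error holds no uncertainty of the scaling.

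**Figure D1:**
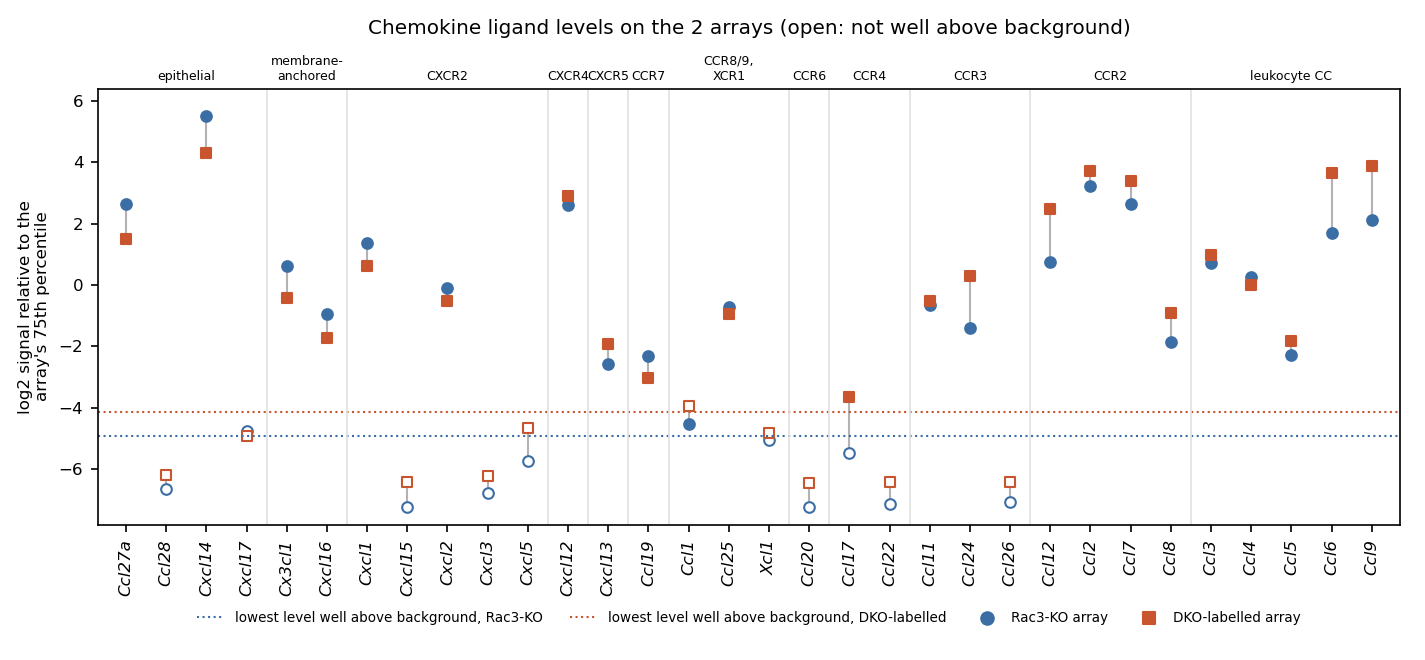
Level of each chemokine ligand with a probe on the Rac3-KO array (blue circles) and the DKO-labelled array (orange squares), as log2 processed signal relative to the array's 75th percentile (vertical axis), with genes grouped by receptor or role (horizontal axis). Open symbols are not well above background and dotted lines mark the lowest level well above background on each array; Cxcl14, Ccl27a, Cx3cl1 and Cxcl16 are lower and Ccl6, Ccl9, Ccl12 and Ccl24 higher on the DKO-labelled array, and the latter 4 lie below 0 difference only with spike-in scaling.

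RefSeq promoter windows (build GRCm38.p6, 250 bases before to 50 bases after the annotated start) were at hand for 26 of the 38 symbols. The windows shown are those of 6 of the 7 genes at least 2-fold apart, Ccl24 having none in the table, with Ccl8 as the neighbour of Ccl12 and the pair Cxcl1 and Cxcl2. Each is printed 5′ to 3′ on the gene's own strand, and capitals mark matches, on either strand, to 6 motifs. The TATA box was searched as TATAAA and the site of the inflammatory factor NF-kappaB as GGNNTTTCC. The site of AP-1 was searched as TGANTCA and that of the myeloid factor PU.1 as GAGGAA. The letters searched for C/EBP factors were TTGCNNAA, and those for STAT factors were TTCNNNGAA. The 3 genes lower on the DKO-labelled array come first, with Ccl27a in the first listed of its 3 windows, and neighbouring matches can overlap.
Cxcl14 (chr13:56296502-56296801, minus strand): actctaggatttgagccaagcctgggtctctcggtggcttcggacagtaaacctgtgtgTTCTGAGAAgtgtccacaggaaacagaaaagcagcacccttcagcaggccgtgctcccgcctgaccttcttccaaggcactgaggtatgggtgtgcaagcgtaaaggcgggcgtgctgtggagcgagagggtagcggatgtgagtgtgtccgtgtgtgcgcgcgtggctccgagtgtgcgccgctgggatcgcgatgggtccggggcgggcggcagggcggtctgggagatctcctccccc
Ccl27a (chr4:41774127-41774426, minus strand): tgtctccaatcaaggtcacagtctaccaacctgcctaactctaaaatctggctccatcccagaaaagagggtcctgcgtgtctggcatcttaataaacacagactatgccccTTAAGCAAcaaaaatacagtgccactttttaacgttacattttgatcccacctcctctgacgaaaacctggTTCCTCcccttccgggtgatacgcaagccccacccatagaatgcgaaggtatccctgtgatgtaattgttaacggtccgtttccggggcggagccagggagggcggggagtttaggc
Cx3cl1 (chr8:94771930-94772229, plus strand): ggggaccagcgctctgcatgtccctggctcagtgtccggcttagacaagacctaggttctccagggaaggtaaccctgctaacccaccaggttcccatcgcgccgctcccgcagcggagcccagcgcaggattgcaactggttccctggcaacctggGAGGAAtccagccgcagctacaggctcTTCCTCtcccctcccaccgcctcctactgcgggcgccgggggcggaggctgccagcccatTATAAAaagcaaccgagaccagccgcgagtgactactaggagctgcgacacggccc
Cxcl1 (chr5:90890995-90891294, plus strand): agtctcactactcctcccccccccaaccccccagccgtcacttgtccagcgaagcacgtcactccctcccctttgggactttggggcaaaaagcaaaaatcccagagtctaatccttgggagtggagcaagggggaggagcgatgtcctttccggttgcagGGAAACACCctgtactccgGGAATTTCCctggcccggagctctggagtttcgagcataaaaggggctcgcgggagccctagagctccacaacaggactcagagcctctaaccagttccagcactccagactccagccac
Cxcl2 (chr5:90903649-90903948, plus strand): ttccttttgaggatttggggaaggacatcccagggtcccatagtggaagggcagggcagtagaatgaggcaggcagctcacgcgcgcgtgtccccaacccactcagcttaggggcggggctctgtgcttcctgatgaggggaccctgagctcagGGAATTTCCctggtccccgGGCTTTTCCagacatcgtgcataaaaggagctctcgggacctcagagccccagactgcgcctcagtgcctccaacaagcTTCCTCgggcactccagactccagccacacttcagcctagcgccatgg
Ccl6 (chr11:83593038-83593337, minus strand): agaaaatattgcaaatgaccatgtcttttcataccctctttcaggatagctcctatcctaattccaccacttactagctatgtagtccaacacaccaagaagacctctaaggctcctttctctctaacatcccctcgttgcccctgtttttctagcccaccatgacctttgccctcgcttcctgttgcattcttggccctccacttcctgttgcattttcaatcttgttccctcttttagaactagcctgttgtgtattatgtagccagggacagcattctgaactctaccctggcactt
Ccl9 (chr11:83578587-83578886, minus strand): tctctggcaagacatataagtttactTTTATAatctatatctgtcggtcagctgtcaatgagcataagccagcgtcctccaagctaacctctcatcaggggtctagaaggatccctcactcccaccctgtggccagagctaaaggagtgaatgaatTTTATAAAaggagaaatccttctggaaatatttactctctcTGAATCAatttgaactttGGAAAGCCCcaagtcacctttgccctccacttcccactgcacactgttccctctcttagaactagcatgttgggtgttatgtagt
Ccl12 (chr11:82101595-82101894, plus strand): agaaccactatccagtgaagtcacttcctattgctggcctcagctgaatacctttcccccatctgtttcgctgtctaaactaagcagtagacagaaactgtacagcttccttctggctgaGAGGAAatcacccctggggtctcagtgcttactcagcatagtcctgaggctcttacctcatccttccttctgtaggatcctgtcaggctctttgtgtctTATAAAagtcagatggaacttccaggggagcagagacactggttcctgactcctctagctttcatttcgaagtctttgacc
Ccl8 (chr11:82114935-82115234, plus strand): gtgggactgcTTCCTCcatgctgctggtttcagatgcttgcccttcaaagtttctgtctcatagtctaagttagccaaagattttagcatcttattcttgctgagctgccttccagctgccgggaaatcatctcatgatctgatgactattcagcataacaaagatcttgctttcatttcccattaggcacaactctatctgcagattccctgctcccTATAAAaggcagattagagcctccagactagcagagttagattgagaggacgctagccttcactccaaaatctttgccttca

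The constitutive epithelial chemokines Cxcl14 and Ccl27a were the measured members furthest below 0. Cxcl14, which attracts monocytes and dendritic cell precursors and is abundant in normal skin, gave a signal of 32362 in Rac3-KO and 6964 in the DKO-labelled sample. Its difference of -1.22 (error 0.20), or 2.34-fold lower, was the lowest of all measured chemokines in this scaling. Ccl27a, the skin chemokine that draws memory T cells through Ccr10, gave 4420 and 1002 at its brightest probe, a difference of -1.15 (error 0.20), 2.22-fold lower. A second Ccl27a probe gave 3637 and 825, also -1.15, and the other gave 785 and 249, a difference of -0.66. Thus 2 of the 3 probes passed 2-fold, and the mean over the 3 probes, -0.99, did not. Ccl27a overlaps Il11ra1 in the gene table and has a similarly named copy, Ccl27b, with no probe of its own; whether the Ccl27a probes also detect Ccl27b was not tested. Ccl28 and Cxcl17, the remaining mucosal and epithelial members with a probe, were not well above background on either array.

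The differences of Cxcl14 and Ccl27a lay within the range of the basal keratinocyte markers (-2.31 to 0.11). They lay at the upper end of the range of the differentiated markers (-4.95 to -1.23), both within 1 signal error of its highest member, Lor. Of these markers 7 of 10 basal and 8 of 8 measured differentiated genes were at least 2-fold lower, with medians of -1.42 and -1.76. The markers that gave the highest signals were the basal keratins Krt5 (219046 and 47847) and Krt15 (97386 and 9891) and the suprabasal keratins Krt10 (117446 and 2609) and Krt1 (56501 and 916). Krt10 and Krt1 were lower by 22.6-fold and 31.0-fold, the most of the measured differentiated markers and far more than Cxcl14 or Ccl27a. The other measured differentiated markers were lower by 2.35-fold (Lor) to 4.44-fold (Dsg1a). The part of these marker differences in the chemokine values was not tested.

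Both chemokines that are made with a membrane anchor were lower on the DKO-labelled array. Cx3cl1, the only CX3C chemokine, which binds Cx3cr1 on monocytes and other leukocytes and is released by shedding, gave 1077 and 264. The difference was -1.04 (error 0.21), 2.05-fold lower, which lies within 1 error of the 2-fold threshold. Cxcl16, which serves both as a ligand of Cxcr6 and as a scavenger receptor, gave 366 and 108, a difference of -0.78 (error 0.22). With normexp background correction the Cxcl16 difference was smaller, at -0.43.

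The CXC chemokines that attract neutrophils through Cxcr2 were below 0 where they were measured, and neither reached 2-fold. Cxcl1 gave 1804 and 546, a difference of -0.73 (error 0.20), or 1.66-fold lower. Cxcl2 gave 654 and 248, a difference of -0.41 (error 0.21). Cxcl3, Cxcl5 and Cxcl15, the other genes of this group with a probe, were not well above background on either array. In the printed windows Cxcl1 and Cxcl2 each hold 2 NF-kappaB matches, Cxcl1 at -89 and -70 and Cxcl2 at -96 and -77 from the start, and the match at -70 of Cxcl1 and that at -96 of Cxcl2 have the same letters, GGAATTTCC. A match to GGNNTTTCC was found in the first listed window of 5 of the 26 symbols, namely Ccl20, Ccl9, Cxcl1, Cxcl2 and Cxcl3, and in 5.82% of all 32851 windows in the table. The Cxcl1 and Cxcl2 windows have a local alignment of 176 columns with 127 identical bases (72.2%), with no unrelated pair set beside it. As a share of the whole window, their identical bases were 56.3%, no higher than the 57.3% of Cxcl2 with Ccl19 on another chromosome. As a share of the aligned bases alone, the values were 74.1% for Cxcl1 with Cxcl2 and 70.5% for Cxcl2 with Ccl19. A match describes letters in a window and is not a measured binding site.

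Among the remaining CXC and lymphoid chemokines the differences were smaller or rested on low signals. Cxcl12, made by stromal cells and bound by Cxcr4, gave 4330 and 2668 at its brighter probe (difference 0.29, error 0.20) and 2315 and 1283 at the other (0.14). Cxcl13, which draws B cells through Cxcr5, gave 118 and 94.8, a difference of 0.67 (error 0.22). Ccl19, a ligand of Ccr7 on dendritic cells and naive T cells, was lower at all 3 of its probes. These gave 143 and 43.6 (-0.73, error 0.26), 129 and 39.0 (-0.73) and 169 and 34.0 (-1.32), so that 1 of the 3, which is not the probe that represents the gene, passed 2-fold. The DKO-labelled signals of Ccl19 lie close to the lowest signal well above background, and with normexp correction its difference was -0.39. Ccl25, the Ccr9 ligand, gave 426 and 183 (-0.23, error 0.21), and its second probe was not well above background.

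**Figure D2:**
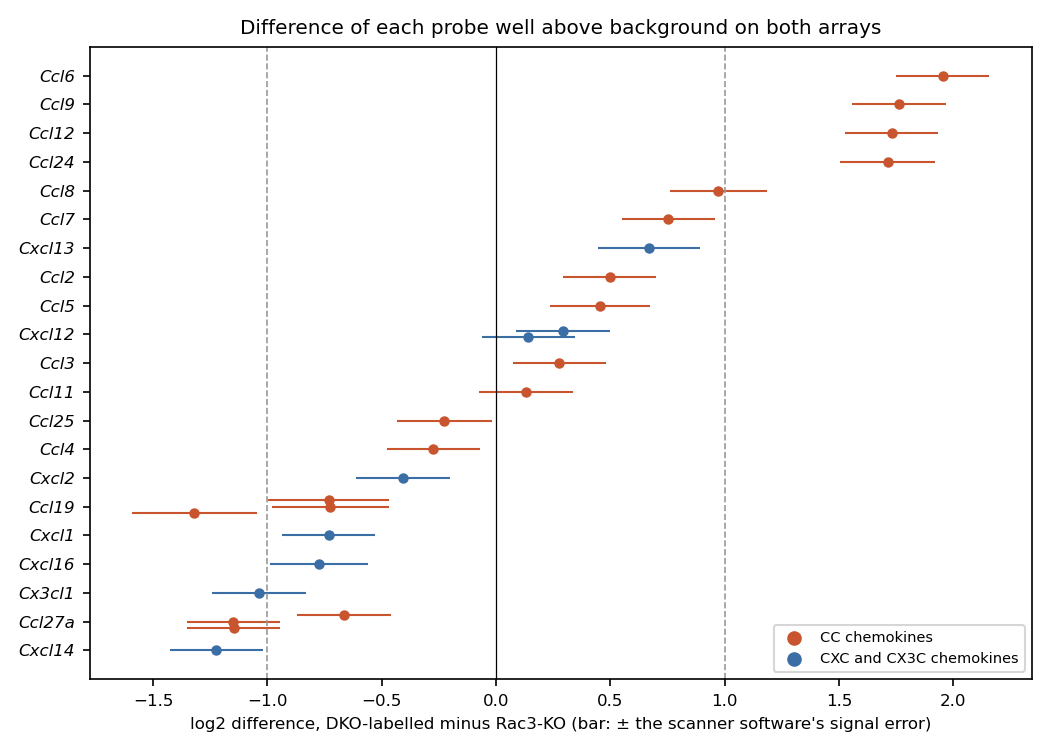
Log2 difference (DKO-labelled minus Rac3-KO, horizontal axis) of every probe well above background on both arrays, 1 row per gene, CC genes in orange and CXC and CX3C genes in blue; bars are ± the scanner software's signal error and dashed lines mark 2-fold. Ccl6, Ccl9, Ccl12 and Ccl24 lie between 1.71 and 1.95 and Cxcl14 at -1.22, in the 75th percentile scaling; spike-in scaling moves every point by -2.06 and puts these 4 below 0.

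The group of leukocyte CC chemokines Ccl3, Ccl4, Ccl5, Ccl6 and Ccl9 held the highest differences. Ccl6, a myeloid chemokine of rodents, gave 2297 in Rac3-KO and 4471 in the DKO-labelled sample. Its difference was 1.95 (error 0.20), 3.87-fold higher, or -0.11 with spike-in scaling. Ccl9, also of myeloid cells and a Ccr1 ligand, gave 3046 and 5194, a difference of 1.76 (error 0.20), 3.39-fold higher, or -0.30 with spike-in scaling. Before scaling both were brighter on the DKO-labelled array, which held for 4 of the 21 measured chemokines, the same 4 that were at least 2-fold higher. The 75th percentiles of the arrays differed by -0.99 on the log2 scale. A brighter unscaled signal is therefore nearly the 2-fold condition again and no further check. The other 3 genes of this group did not share the size of these differences: Ccl3 gave 1158 and 705 (0.28, error 0.20), Ccl4 gave 848 and 353 (-0.27, error 0.21) and Ccl5 gave 146 and 100.4 (0.46, error 0.22). Ccl3 and Ccl4 lay within 2 errors of 0. Ccl6 overlaps a gene named E230016K23Rik in the gene table, and Ccl3 and Ccl4 overlap each other there; the strand of such neighbours was not examined.

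All 4 genes grouped here under Ccr2, a receptor of monocytes, were above 0 in the 75th percentile scaling and below 0 with spike-in scaling. Whether each of these mouse genes acts through Ccr2, Ccl8 among them, was not examined. Ccl12 gave 1187 and 1980, a difference of 1.73 (error 0.20), 3.32-fold higher, or -0.33 with spike-in scaling. Ccl8 gave 193 and 190, nearly the same unscaled signal, so that its difference of 0.97 (error 0.21) comes from the scaling and lies just inside 2-fold. Ccl7 gave 4418 and 3744, a difference of 0.75 (error 0.20). Ccl2, the main monocyte chemokine, gave 6557 and 4651 as means over its spots, a difference of 0.50 (error 0.20).

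Ccl2 was the only chemokine spotted 10 times, which gives its technical spread. On the Rac3-KO array the 10 spots ranged from 6099 to 7033, with a median of 6503 and a mean of 6565 ± 333 (SD over spots). On the DKO-labelled array 1 spot was marked as an outlier, and the remaining 9 ranged from 4258 to 4938, with a median of 4659 and a mean of 4656 ± 241. The kept spots of the 2 arrays did not overlap before scaling, with Rac3-KO the brighter, whereas the scaled difference has the opposite sign. Taken spot position by position, the scaled difference was 0.50 ± 0.14 (SD, 9 positions), from 0.29 to 0.65. These are spots of 1 hybridisation per genotype and do not replicate the genotype.

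**Figure D3:**
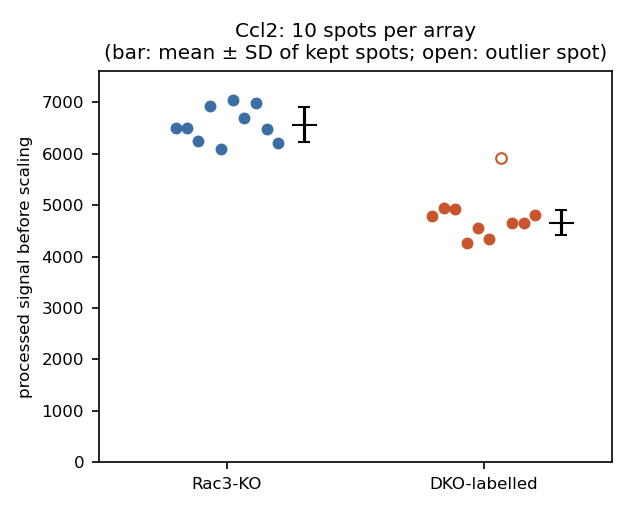
Processed signal before scaling (vertical axis) of the 10 Ccl2 spots on the Rac3-KO array and the DKO-labelled array; bars are the mean ± SD of the kept spots and the open circle is the spot left out as an outlier. The kept spots lie between 6099 and 7033 on the Rac3-KO array and between 4258 and 4938 on the DKO-labelled array, while the scaled difference is positive at 0.50, or negative with spike-in scaling.

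Of the Ccr3 ligands, which attract eosinophils, Ccl24 stood with the higher genes and Ccl11 did not. Ccl24 gave 266 and 439, a difference of 1.71 (error 0.21), 3.28-fold higher, 1.41 with normexp correction and -0.35 with spike-in scaling. Ccl11 gave 449 and 247, a difference of 0.13 (error 0.21). Ccl26 was not well above background on either array.

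Ccl17, a Ccr4 ligand known from dendritic cells, passed the background limit in the DKO-labelled sample alone, with signals of 16.1 and 28.2, which gives at least 2.39-fold higher after scaling. Of all named genes, 0.908% were detected on that array alone and higher by at least 2-fold. Ccl22, the other Ccr4 ligand, was not well above background on either array. Ccl1, the Ccr8 ligand, passed the background limit in Rac3-KO alone, at 30.7 against 22.9, and no fold can be given. The 9 genes well above background on neither array were Ccl20, Ccl22, Ccl26, Ccl28, Cxcl3, Cxcl5, Cxcl15, Cxcl17 and Xcl1, with signals from 4.09 to 25.9. They were not detectable at this signal, which does not show that they were absent.

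Many CC chemokine genes lie in clusters, and neighbours in the gene table did not all differ alike. In 1 chromosome 11 cluster the order was Ccl2, Ccl7, Ccl11, Ccl12, Ccl8 and Ccl1, with differences of 0.50, 0.75, 0.13, 1.73 and 0.97 for the first 5. In the other the order was Ccl5, Ccl9, Ccl6, Ccl3 and Ccl4, and the adjacent pair Ccl9 and Ccl6 stood at 1.76 and 1.95 between Ccl5 (0.46) and Ccl3 (0.28). On chromosome 8, Cx3cl1 (-1.04) lies between Ccl22, not well above background, and Ccl17, at least 2.39-fold higher. On chromosome 5, Cxcl1 and Cxcl2 were both below 0 while Cxcl5, Cxcl3 and Cxcl15 beside them were not well above background. With spike-in scaling all these measured genes, and the Ccl17 probe, were below 0.

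**Figure D4:**
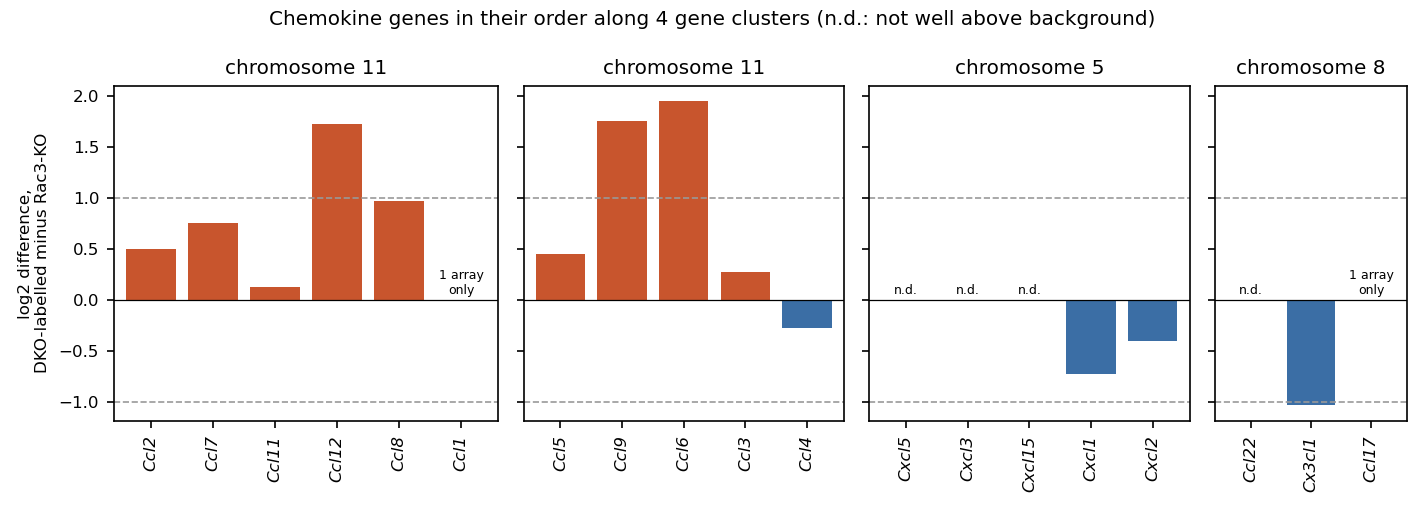
Log2 difference (DKO-labelled minus Rac3-KO, vertical axis) of chemokine genes in their order along 4 clusters (horizontal axis, not to scale), orange above and blue below 0; n.d. marks genes not well above background on either array, and dashed lines mark 2-fold. Ccl9 and Ccl6 form an adjacent pair at 1.76 and 1.95 and Ccl12 stands at 1.73 beside Ccl11 at 0.13, in the 75th percentile scaling; with spike-in scaling all bars lie below 0.

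The printed windows of the adjacent pairs were also aligned. Ccl6 and Ccl9 have a local alignment of 74 columns with 58 identical bases (78.4%), placed at -59 to 15 in Ccl6 and at -18 to 49 in Ccl9, so the alignment is offset relative to the annotated starts. No unrelated pair is set beside this local alignment. As a share of the whole window, the identity of Ccl6 and Ccl9 was 54.3%, and that of Ccl12 with Ccl20 on another chromosome was 55.7%, so the whole windows do not set this pair apart. The identity of Ccl12 and Ccl8 over the whole window was 59.0%, little above that of such unrelated pairs, and each holds a TATAAA match, at -31 in Ccl12 and at -32 in Ccl8. TATAAA was found in the first listed window of 7 of 26 chemokine symbols and in 13.6% of all windows. Ccl9 also holds TATAAA and TGANTCA matches (the latter at -53), and no motif searched was found in the printed Ccl6 window. GAGGAA, the PU.1 letters, occurred in 11 of the 26 first listed windows and in 28.3% of all windows. It was present in the printed windows of Ccl12 and Ccl8 and in those of the lower genes Ccl27a and Cx3cl1. The last listed of the 3 Ccl27a windows held no GAGGAA or TTGCNNAA but a TGANTCA match at -77. TTGCNNAA occurred in 5 of 26 and 10.8%, TGANTCA in 2 of 26 and 7.81%, and TTCNNNGAA in 2 of 26 (Ccl17 and Cxcl14) and 8.3%. Some of the 26 windows are near copies. Identical bases were 99.3% of the aligned bases for Ccl21a with Ccl21d and 98.3% for Ccl27a with Ccl27b. All of these windows hold GAGGAA and TTGCNNAA matches, so those counts are not counts of separate sequences.

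Markers of macrophages and monocytes moved in the same direction as the higher CC chemokines: 8 of 11 measured markers were at least 2-fold higher, all 11 were above 0 in this scaling (0.86 to 2.19, median 1.18), and their summed level was 63.1 and 156. Csf1r, the receptor that marks macrophages and monocytes, gave 12066 and 16524 and was 2.72-fold higher, and Itgam gave 10493 and 11793 and was 2.24-fold higher; with spike-in scaling both were below 0. Cd163, a scavenger receptor of tissue macrophages, gave 50.7 and 116 (2.19), the marker with the largest difference. The differences of Ccl6, Ccl9, Ccl12 and Ccl24 (1.71 to 1.95) lay above those of all these markers except Cd163. The 2 measured B cell markers had a median of 1.25 (summed level 0.400 and 0.886). Medians were 0.88 for 7 Langerhans and dendritic cell genes (summed level 15.5 and 24.3), 0.59 for mast cells (202 and 339), 0.48 for neutrophils (14.8 and 18.7), 0.38 for T and NK cells (8.50 and 11.8) and 0.62 for fibroblasts (1598 and 2724). Some members went the other way: 2 of 6 measured neutrophil genes, 2 of 7 T and NK genes and 2 of 10 fibroblast genes were below 0. The 2 T and NK genes were at least 2-fold lower. Detected in Rac3-KO alone were 1 neutrophil, 1 T and NK and 2 Langerhans and dendritic cell genes. Cd207, which defines Langerhans cells, was not well above background on either array. Skeletal muscle markers had the largest median, 2.62, with summed levels of 328 and 1933. The part of these cell types in the chemokine values was not tested.

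**Figure D5:**
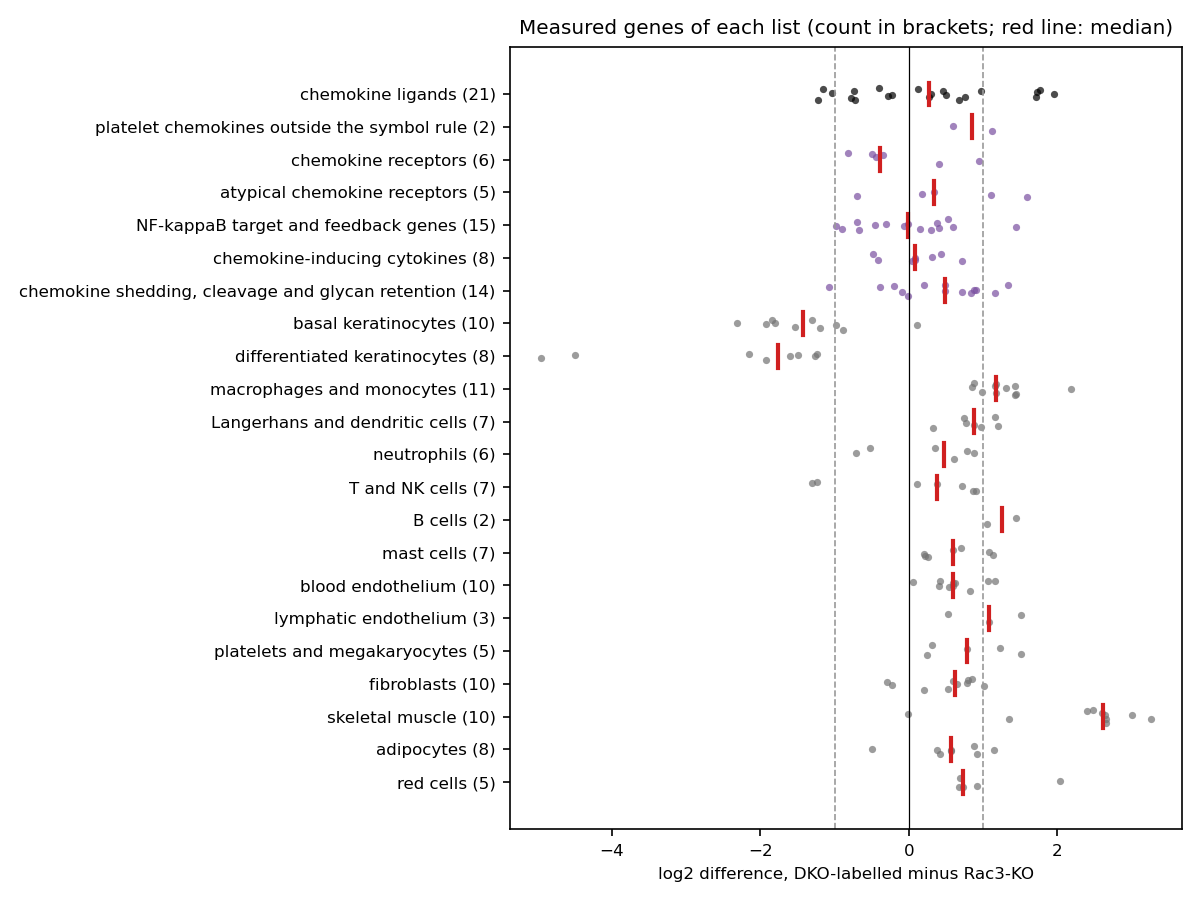
Log2 difference (DKO-labelled minus Rac3-KO, horizontal axis) of each measured gene of the chemokine ligands, pathway lists and cell type marker lists (rows, number of measured genes in brackets); red lines are medians and dashed lines mark 2-fold. The chemokines range from -1.22 to 1.95 around a median of 0.28, macrophage and monocyte markers have a median of 1.18 and differentiated keratinocyte markers of -1.76, in the 75th percentile scaling; spike-in scaling moves every point by -2.06.

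The receptors for these ligands were mostly dim. Of 17 signalling chemokine receptors, 6 were measured, 9 were not well above background on either array, and Ccr4 and Ccr10 passed that limit in Rac3-KO alone. None of the 6 was at least 2-fold apart, and their median was -0.39. Ccr1, the receptor of Ccl6 and Ccl9, gave 9.95 and 17.7, and neither it nor Ccr3, the receptor of Ccl24, was well above background. Ccr2, the receptor of Ccl12, gave 90.3 and 32.3, a difference of -0.49 (error 0.29), the opposite sign to that of the 4 genes grouped here under it in this scaling. Cx3cr1 gave 867 and 247, a difference of -0.82, on the same side of 0 as its ligand Cx3cl1. Ccr10, which binds Ccl27a, gave 45.4 and 11.5, at least 1.14-fold lower, and Ccr4 gave 54.2 and 9.82, at least 1.36-fold lower. Cxcr3, a receptor of activated T cells, had the highest difference of the 6 measured signalling receptors, 99.9 and 96.3 (0.94), and Cxcr4 gave 823 and 305 (-0.44).

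The 5 atypical receptors were all measured, and 2 were at least 2-fold higher in the 75th percentile scaling and below 0 with spike-in scaling. Ackr1, the Duffy receptor of venous endothelium and red cells, gave 789 and 1200, a difference of 1.60 (error 0.20), 3.02-fold higher. Ackr2, which scavenges inflammatory CC chemokines, gave 444 and 483 (1.11, 2.16-fold higher). Ackr4, which scavenges Ccl19, gave 872 and 270 (-0.70), and Ackr3, which binds Cxcl12, gave 4944 and 2814 (0.18). Ccrl2, which binds chemerin, gave 115 and 72.7 (0.33). Markers of blood endothelium were also above 0, 10 of 10, with a median of 0.60 and summed levels of 44.2 and 70.8, and red cell markers had a median of 0.72; their part in the Ackr1 value was not tested.

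Genes of NF-kappaB signalling, which induces many chemokines, showed no common direction. Of 15 measured target and feedback genes 1 was at least 2-fold higher and 0 lower, with a median of -0.01. Tnfaip2 gave 356 and 489, a difference of 1.45, and was 2.73-fold higher, or below 0 with spike-in scaling. Tnfaip3, a feedback inhibitor, gave 3652 and 928 (-0.98), Cd83 gave 761 and 205 (-0.90) and Nfkb1 gave 833 and 259 (-0.69), none of them reaching 2-fold.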

How the data were processed

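Expression was measured on 2 single-colour Agilent arrays, 1 per genotype. The authors' deposited scanner files hold spot intensity, extracted with Feature Extraction 10.10.1.1 on a design that refers to mm9, per the file headers. Version 9.1 of Agilent Feature Extraction is named in the submitters' processing notes. The authors' deposited table of processed values holds log2 numbers; subtracting them from the log2 processed signal left 1 constant per array for 100% of singly spotted probes (tolerance 0.001), with column medians of -3.72 (Rac3-KO) and -3.62 (DKO-labelled). The detection flags, another kind of value, are the software's, per the file headers.

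Processed signals were averaged over a probe's spots on the log2 scale, without control spots and spots marked as outliers (155 and 190), and each array's 75th percentile over 55678 probes was subtracted; no spot was saturated. Accessions were matched to the RefSeq gene table of GRCm38.p6, used for names, gene order and promoter windows only; 26580 probes named 20144 genes. The probe with the highest mean level stood for a gene. For a gene detected on 1 array only, the at-least fold sets its level there against the dim array's lowest level well above background, or against the dim probe itself where that was higher. Differences carry the software's signal error; 379 probes with at least 8 spots had a median SD of 0.10 (log2). The precision is limited by the 1 array per genotype, and no test was run.

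The genes, role groups and lists were chosen with earlier results of these data known, and 1 list member is not reported here. Every member was named; from each pathway list up to 4 genes with the largest differences and the receptors of the genes at least 2-fold apart, and from marker lists up to 2 with the highest signal. Ackr3, Ccr4, Adam10, Cd163 and Cd207 were named after their values were seen. Alternatives were other scalings, normexp (limma 3.58.1 in R 4.3.3, offset 50, on median spot signals), filters on dim probes and on the signal error, the mean over probes, outlier spots kept, the deposited table and thresholds of 1.5-fold and 3-fold. Python 3.11.15, pandas 2.3.3 and Biopython 1.88 were used, and the scripts were tested on simulated data.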

Additional observations from a re-analysis of the deposited data

How the results depend on the processing

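With spike-in scaling (7 probes) 17 of the 21 measured chemokines passed 2-fold downward and 0 upward, beside 13182 and 14 of all 14144 measured genes. The median was -1.78, beside -2.07 over all measured genes. Ccl12 (-0.33), Ccl24 (-0.35), Ccl6 (-0.11) and Ccl9 (-0.30) had the opposite sign. The shift of -2.06 applies to every gene alike. At a 1.5-fold threshold 6 were lower and 7 higher, and at 3-fold 0 were lower and the count of higher ones stayed at 4. The counts over all genes at these thresholds are not given here, so no share stands beside them. Under the other alternatives run (median, shared-probe and quantile scaling, normexp, 2 filters, mean over probes, outlier spots kept, deposited table), 189 of 189 gene values kept their side of 0. Many of these values could hardly differ, so the 189 are not independent checks. The 2 filters leave a gene's value as it is, and the deposited table holds the same signals less 1 constant per array. The counts were 2 or 3 lower and 4 higher, beside 664 to 1152 lower and 768 to 1091 higher of 13276 to 14148 genes. With no filter on dim probes 3 of 32 were lower and 6 higher, beside 1521 lower and 2122 higher of all 20144 named genes. A gene-name column, planned as an alternative source of names, was not used here, and normexp used median spot signals. No paired analysis was possible because each genotype has 1 array. Signals near background limit Ccl19, Ccl17, Ccl1, Ccr2, Ccr4 and Ccr10, among others.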

Other observations

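The platelet chemokines, which fall outside the symbol rule, were both above 0 in the 75th percentile scaling and below 0 with spike-in scaling. Pf4 (Cxcl4 in the systematic naming), stored in platelet granules and also found in macrophages, gave 37506 in Rac3-KO and 40883 in the DKO-labelled sample, a difference of 1.12, 2.17-fold higher. Ppbp gave 207 and 157 (0.59). The 5 platelet and megakaryocyte markers had a median of 0.79.

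Among 14 measured genes of chemokine shedding, cleavage and glycan retention, 2 were at least 2-fold higher and 1 lower, with a median of 0.49. Adam17, a protease that sheds Cx3cl1 and Cxcl16, gave 65.9 and 83.5 (1.33, 2.52-fold higher), and Mmp3 gave 44.6 and 50.1 (1.16); with spike-in scaling both were below 0. Sdc1, the epithelial heparan sulfate proteoglycan, gave 4491 and 1070 (-1.08, 2.11-fold lower), and Hpse, which cuts heparan sulfate, gave 794 and 749 (0.91). Adam10, the other protease that sheds Cx3cl1, gave 7601 and 3592 (-0.09).

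Of 16 cytokines known to induce chemokines, 8 were measured and none was 2-fold apart (median 0.08). Il33, an alarmin of epithelium and stroma, gave 263 and 217 (0.71), Tnf gave 762 and 273 (-0.49), Il1b gave 91.6 and 61.9 (0.43) and Osm gave 128 and 48.4 (-0.42).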
